A study of Mesocricetus auratus with 24 samples.

Results

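The small contigs of the Syrian hamster genome are the assembled sequences whose names begin with APMT. They were set against the scaffolds, the longer assembled sequences whose names begin with KB. All CpG positions listed on contigs were taken and summed over windows of 1 kb along each contig. This gave 10253 contig windows of 382907 windows in all, on 5311 contigs, beside 372654 scaffold windows on 2634 scaffolds. The methylation level of a window is the percent of its reads, summed over positions, that carried an unconverted cytosine.

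A contig is a stretch of sequence joined from overlapping reads. Contigs that an assembler could not order into a scaffold often come from parts of a genome that are repeated, rich in G and C or cut off by gaps. In mammals most CpG dinucleotides are methylated, while CpG-dense islands, many of them at gene starts, are mostly free of methylation. Reduced representation bisulfite sequencing cuts DNA at CpG-containing sites and reads the short fragments, so it samples CpG-dense sequence more than the rest. No gene annotation or sequence of the authors' assembly was used here, so contig windows are named by contig and position only, and their genes are not described.

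The study followed DNA methylation in Syrian hamster fetal cells through a cell transformation assay, in which colonies grown after exposure to a chemical are scored by their morphology. Benzo[a]pyrene (B[a]P), a combustion product that cells convert into DNA-binding metabolites, was the agent, at 5 µg/mL. There were 24 libraries in 6 groups of 4. Vehicle pools (0.2% DMSO) and B[a]P pools each held about 60 colonies collected on day 9. Normal and transformed colony cultures both descended from B[a]P-treated colonies and were grown for 19 to 25 days. Cells for the pools and colonies came from a single male fetus. The senescent culture (day 48) and the bypass culture (day 94, after growth had resumed) descended from 1 colony of transformed morphology, also treated with B[a]P, from an assay on pooled female and male fetuses. The submitters' design text calls the libraries of the pools and colonies biological replicates. It calls those of the senescent and bypass groups technical replicates, and both groups come from 1 culture, so their p-values measure technical spread. Day in culture and bypass of senescence cannot be told apart in that comparison.

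Coverage summed over all positions ran from 30316233 to 67276906 per library. Normal colony library 2 and vehicle pool library 2 stood apart: they had the lowest scaffold methylation means, 26.7% and 27.4%, and the fewest contig windows, 3997 and 3770, against 4359 to 6350 in the other libraries.

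Most contigs were represented by little sequence. Of the 5311 contigs, 2852 (53.7%) had positions in a single 1 kb window, 340 had 5 or more windows, and the highest number was 17. The median contig had 5 listed positions, counting each strand apart, and 1420 contigs had 1 or 2. The last listed base lay at 2253 on the median contig, beyond 10000 on 481 contigs, and at most at 45787. A library listed 2527 to 3796 contigs, with 20334 to 38379 contig positions in 3770 to 6350 windows.

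Contigs were sampled about as evenly as scaffolds. Of 81072 contig positions, 534 (0.659%) were listed in all 24 libraries, against 0.536% of 3116498 scaffold positions. Positions listed in 1 library only made up 12.5% of contig positions and 12.4% of scaffold positions. The median coverage per position lay between 21 and 39 reads on contigs and between 21 and 38 on scaffolds. Contigs held 2.51% to 2.61% of the listed positions and 2.63% to 2.70% of the coverage of every library.

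The share of coverage on contigs did not separate the groups. It was 2.67% ± 0.0283 (SD, n = 4) in bypass and 2.67% ± 0.0244 in senescent libraries, and the difference of 0.000813 percentage points had p = 1 (exact two-sided permutation test). Transformed colonies exceeded normal colonies by 0.00437 points (exact permutation p = 0.743) and B[a]P pools exceeded vehicle pools by 0.00167 points (exact permutation p = 0.800), or by -0.00244 points without vehicle pool library 2. With the values adjusted over the 3 comparisons, each adjusted p was 1. The differences in all 3 comparisons were smaller than the spread between replicates. The smallest p that 4 against 4 libraries allow is 0.0286.

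A window on 1 contig had far higher coverage than the other contig windows measured in all 24 libraries. Such extremes were not particular to contigs, since the highest scaffold window so measured had 25028 reads per listed position. On contig APMT01211032.1, positions 5001 to 6000, the mean coverage was 5728 reads per listed position, from 2945 in vehicle pool library 4 to 12330 in normal colony library 2. This was 140 to 338 times the median coverage of contig positions in the same library, with a median of 196 times over 24 libraries. The contig held between 3.89% (bypass library 1) and 7.17% (senescent library 2) of all contig coverage. The mean ratio to the median was lowest in vehicle pools, 157 ± 16.1 (SD, n = 4), and highest in normal colonies, 251 ± 89.6. The vehicle pools, at 140 to 176, lay below all senescent libraries, at 193 to 328. These differences were not tested. The ratio was a mean over the positions listed in each library, which numbered 8 to 18. As a share of contig coverage the contig held 3.95% to 5.16% in vehicle pools and 4.36% to 7.17% in senescent libraries, which overlapped.

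Despite this coverage the window kept an intermediate level in every library. Its methylation was 34.2% ± 2.34 (SD over 24 libraries), from 27.5% in normal colony library 2 to 39.0% in senescent library 2. Group means ran from 32.6% ± 1.76 in transformed colonies to 36.8% ± 1.70 in senescent libraries, and the range of the 6 group means was 4.21 points. The other 4 windows of highest coverage were far below it. APMT01236954.1 (1001 to 2000) had 1007 reads per position and a level of 83.0% ± 4.03. APMT01235746.1 (1001 to 2000) had 663 reads and 87.8% ± 7.70. The first window of APMT01223601.1 had 507 reads and 32.8% ± 7.25, and APMT01212173.1 (10001 to 11000) had 438 reads and 83.8% ± 7.77. All 5 thus had intermediate or high levels. The 4 windows after APMT01211032.1 had a median of only 3 or 4 listed positions. Of the 33 contig windows with 3 to 5 positions measured in all libraries, 87.9% had a level of 20% or more. Such levels were therefore common at that number of positions.

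Mean coverage per position was higher on contigs than on scaffolds in 24 of 24 libraries, by 0.06 ± 0.01 on the log2 scale (two-sided sign-flip permutation p = 2e-05, the smallest that the 100000 resamples can give). The ratio of the means lay between 1.02 and 1.06. Without the top 0.1% of coverage on both kinds of sequence the log2 ratio was 0.0458. It was 0.0549 with a coverage minimum of 20, and each was above 0 in 24 of 24 libraries. The direction turned without contig APMT01211032.1, an alternative chosen after its coverage was seen that left all scaffolds in. The log2 ratio was then -0.01 ± 0.01, with 5 of 24 libraries above 0 (permutation p = 0.000160). With medians over positions in place of means the log2 ratio was 0.02, above 0 in 10 of 24 libraries. The share of positions above the top 0.1% of coverage did not differ between contigs and scaffolds beyond the spread between libraries (permutation p = 0.635).

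**Figure D1:**
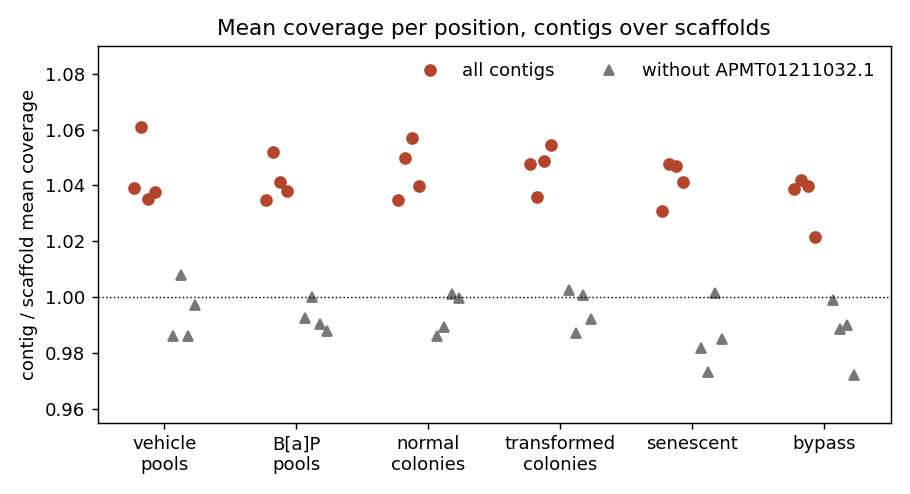
Mean coverage per listed position on contigs divided by that on scaffolds (vertical axis, a ratio), 1 point per library, by group (horizontal axis). Circles use all contigs and lie between 1.02 and 1.06. Triangles leave out contig APMT01211032.1 and lie between 0.972 and 1.01, most of them below the dotted line at 1.

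Methylation levels were compared over windows in which all 24 libraries had 3 or more positions. These were 567 contig windows (5.53%) on 471 contigs and 22274 scaffold windows (5.98%). Contig windows were mostly at the low or the high end. The mean of the 24 libraries was below 20% in 358 windows (63.1%), at 80% or above in 105 (18.5%), and between these in 104 (18.3%). On scaffolds the shares were 58.8%, 16.5% and 24.7%. The median contig window had a level of 3.81% and the median scaffold window 7.06%, with a median of 18 positions per window in both.

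Many contig windows were low in all libraries. Of the 567, 289 (51.0%) were below 20% in each of the 24 libraries, against 43.8% of scaffold windows. Only 18 (3.17%) were at 80% or above in each, against 3.05% of scaffold windows. Per library, the share of windows below 20% was higher on contigs than on scaffolds in 24 of 24 libraries, by 3.35 ± 1.04 percentage points. The share between 20% and 80% was lower in 24 of 24, by 4.06 points on average (mean difference -4.06 ± 1.24). The share at 80% or above was higher on contigs in 16 of 24 libraries, by 0.713 ± 1.24 points. Adjusted permutation p-values over 8 such contrasts were 2.67e-05, 2.67e-05 and 0.0113. They cover the spread between libraries, which share the same windows. Which windows lay on contigs is not covered, and the differences were not tested against the spread between windows.

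**Figure D2:**
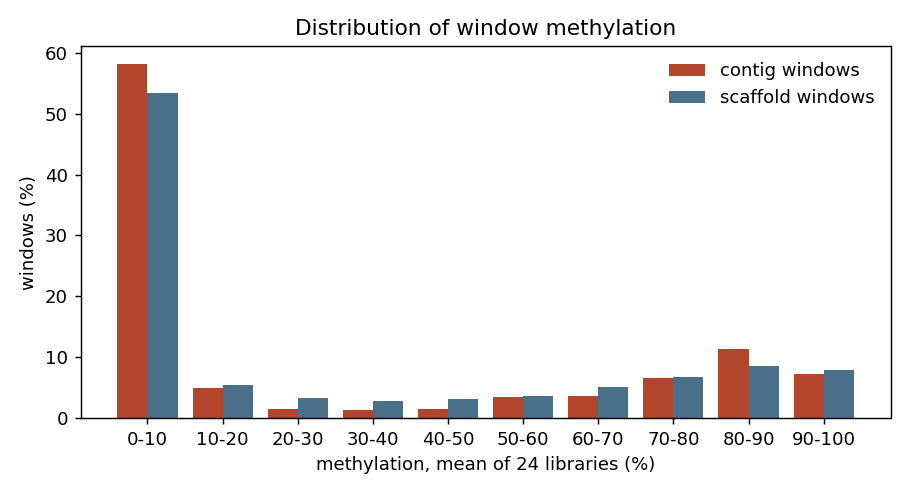
Percent of windows (vertical axis) in steps of 10 percentage points of methylation, as the mean of 24 libraries (horizontal axis). Contig windows (567) exceed scaffold windows (22274) in the lowest step, 58.2% against 53.3%, and in the step from 80% to 90%, 11.3% against 8.61%. In the step from 90% to 100% the contig share is smaller, 7.23% against 7.92%.

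The mean level over windows was 29.0% on contigs and 30.3% on scaffolds. The difference was -1.31 ± 0.824 points (SD, 24 libraries) and contigs were lower in 24 of 24 libraries (two-sided sign-flip permutation p = 2e-05, the smallest possible here). That test covers the spread between libraries, which share the same windows and in part the same culture or fetus. With 1 mean for each of the 6 groups the exact sign-flip permutation p was 0.0312. Levels of single contig windows had an SD of 36.5 points, which gives a standard error of 1.53 points over the 567 windows, larger than the difference itself. The difference was -0.563 points with a coverage minimum of 20 and -0.475 over windows with at least 1 position, and 7 of 24 libraries were then positive in each case. It was -0.852 points with at least 5 positions. Which windows happened to lie on contigs is therefore not covered by the p-value.

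The densest contig windows had a lower mean level than the densest scaffold windows. Windows were grouped by their number of listed positions, which depends on CpG density and on the positions covered, with p-values adjusted over the 4 classes. The 249 contig windows with 21 or more positions had a mean level of 5.48%, against 7.42% in 9644 scaffold windows. The difference of -1.94 ± 0.614 points was negative in 24 of 24 libraries (adjusted permutation p = 8e-05). That test covers the spread between libraries, which share the same windows. The standard error over windows was 1.05 points on contigs and 0.183 on scaffolds, and the difference was not tested against it. Of these densest windows, 12 on contigs (4.82%) had a level of 20% or more, against 8.69% on scaffolds. With 11 to 20 positions, 172 contig windows averaged 34.9% and scaffold windows 35.7%, a difference of -0.782 ± 1.02 (adjusted permutation p = 0.00104) that was below the window standard error of 2.86 points.

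In sparse windows contigs and scaffolds were closer. With 6 to 10 positions, 113 contig windows averaged 60.8% and scaffold windows 60.6% (difference 0.193 ± 1.63, adjusted permutation p = 0.567). With 3 to 5 positions, 33 contig windows averaged 67.1% and scaffold windows 66.4% (difference 0.728 ± 1.88, adjusted permutation p = 0.0935). On both kinds of sequence the level fell with the number of positions.

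**Figure D3:**
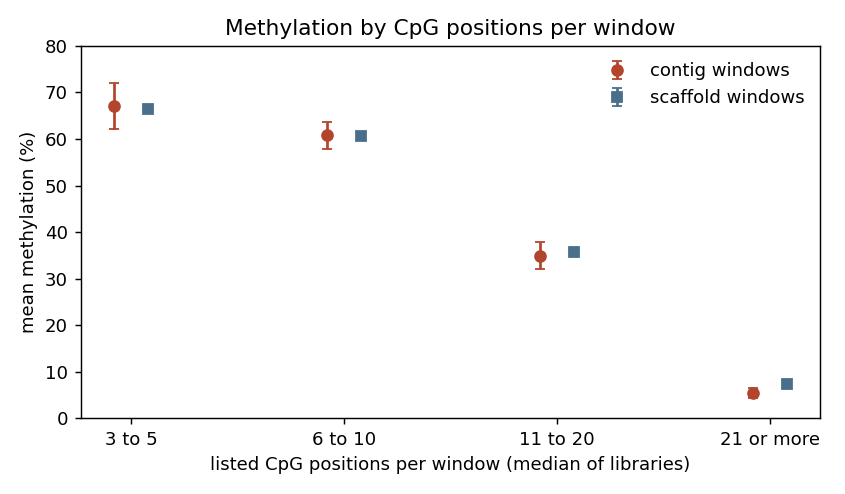
Mean methylation (vertical axis, percent) of contig windows (circles) and scaffold windows (squares) by the number of listed positions per window (horizontal axis). Bars are the standard error over windows, smaller than the squares on scaffolds. Means drop from 67.1% to 5.48% on contigs and from 66.4% to 7.42% on scaffolds.

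Contig windows also varied less. The median SD between 4 replicates lay between 2.29 and 2.94 points over the 6 groups on contigs and between 3.31 and 4.07 on scaffolds, lower on contigs in each group. The median range of the 6 group means was 5.84 points on contigs and 8.86 on scaffolds. A range of at least 20 points was seen in 103 contig windows (18.2%) and in 24.7% of scaffold windows. Forward and reverse positions of the same CpG differed on average by at most 13.2 points per library on contigs, less than on scaffolds in 24 of 24 libraries (mean difference -1.50 ± 0.573, adjusted permutation p = 2.67e-05). These measures are small where levels are near 0, and contigs held more such windows. The p-value covers the spread between libraries only.

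Neighbouring windows on a contig mostly shared a level. Of 72 pairs of adjacent contig windows measured in all libraries, 58 were both below 20%, 5 both at 80% or above, and 2 joined a low to a high window. Of 4098 scaffold pairs, 2991 were both below 20%, 149 both at 80% or above, and 60 joined a low to a high window. The median difference was 1.21 points in contig pairs and 2.50 in scaffold pairs. More than 50 points separated 4.17% of contig pairs and 4.44% of scaffold pairs. The first window of a contig averaged 36.6% (n = 141) and later windows 26.5% (n = 426). Library means were 34.2% to 39.9% and 23.8% to 29.6% and did not overlap, but all libraries share the same windows. Single contig windows had an SD of 36.5 points, and the difference was not tested against that spread. First and later windows were not compared on scaffolds.

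The 5 contigs with the most positions listed in all 24 libraries show the kinds of level found. APMT01235323.1 had 8 such positions and was all but unmethylated, at 0% to 2.04%. APMT01209603.1 (10 positions) was almost fully methylated, at 85.1% to 100%, with the lowest value in B[a]P pool library 3. APMT01235590.1 (11 positions) lay between 70.3% in vehicle pool library 2 and 94.8% in senescent library 4.

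The other 2 of these contigs were intermediate and less even. APMT01237495.1 (12 positions) ran from 23.2% in transformed colony library 1 to 56.8% in bypass library 3, with group means from 32.9% ± 4.35 in normal colonies to 50.5% ± 5.58 in bypass. APMT01210841.1 (7 positions) ran from 5.15% in senescent library 4 to 51.9% in bypass library 4. The other 3 bypass libraries of that contig were between 9.63% and 19.8%, so its bypass mean of 23.0% ± 19.7 rests on 1 library.

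Mean contig methylation was higher in each bypass library than in each senescent library, in a comparison that did not pass the adjusted test. The 4 senescent libraries had mean contig levels of 29.5%, 30.5%, 29.9% and 29.6%, and the 4 bypass libraries 31.7%, 32.1%, 31.8% and 31.6%. The groups did not overlap. Senescent libraries averaged 29.9% ± 0.424 and bypass libraries 31.8% ± 0.238 (SD, n = 4). They differed by 1.92 points, larger than the spread between replicates. The exact two-sided permutation p was 0.0286, the smallest that 4 against 4 allow, and 0.0857 when adjusted over the 3 comparisons. The adjusted p could not be lower unless another comparison also reached the smallest p, so the adjusted test could not decide here. The direction depended on weighting: with windows weighted by their reads the difference was -0.529 points (exact permutation p = 0.743), and -0.192 without contig APMT01211032.1.

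The transformed and normal colonies overlapped. Contig levels of the transformed colonies were 28.2%, 28.9%, 29.4% and 29.5%, and those of the normal colonies 26.9%, 26.5%, 29.2% and 28.4%. The difference of 1.24 points was about the size of the normal colonies' SD of 1.24 (exact permutation p = 0.143, adjusted 0.214), and it was 0.632 with a coverage minimum of 20 and 1.88 over windows of the 8 libraries. In the pools, B[a]P libraries had 27.5%, 27.8%, 27.7% and 28.4% and vehicle libraries 28.1%, 27.4%, 27.7% and 28.1%. Both means were 27.8% and the exact permutation p was 1.

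**Figure D4:**
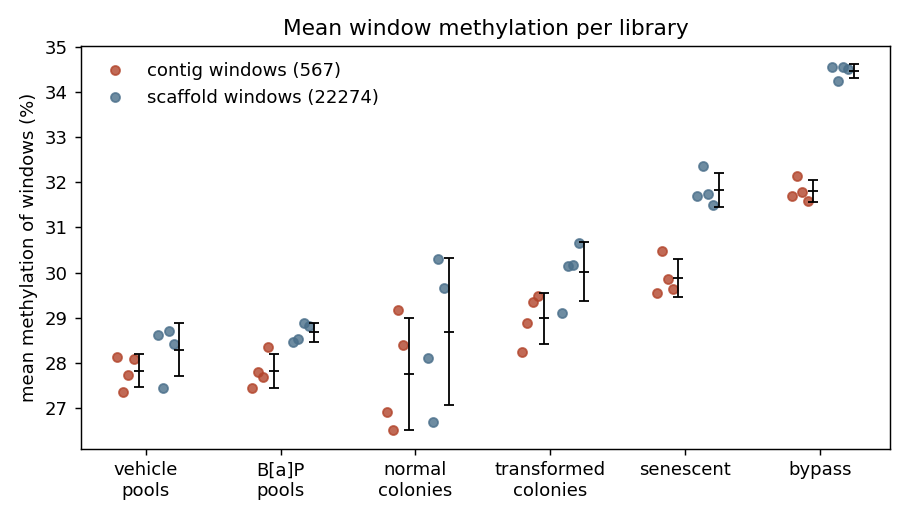
Mean methylation over windows (vertical axis, percent, not starting at 0) for each library, by group (horizontal axis). Circles are the means over contig and over scaffold windows, and black bars give the mean and SD of 4 libraries. Bypass libraries lie highest on both kinds of sequence, and the gap between contigs and scaffolds is 2.65 points there against 0.467 in vehicle pools.

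Scaffolds had means of 31.8% ± 0.376 in senescent and 34.5% ± 0.147 in bypass libraries. The contig minus scaffold gap was -1.94 ± 0.147 points in senescent and -2.65 ± 0.374 in bypass libraries. The difference of -0.712 points did not pass the test (exact permutation p = 0.0571, adjusted 0.171). It was -1.36 points weighted by reads (exact permutation p = 0.0286, adjusted 0.0857), and -0.335 with a coverage minimum of 20. The gap changed by -0.0896 points from normal to transformed colonies, and by 0.169 without normal colony library 2. That change ran from -1.29 weighted by reads to 0.0720 over windows of the 8 libraries, and passed in none of these settings (exact permutation, lowest adjusted p = 0.171). It changed by -0.382 points from vehicle to B[a]P pools (exact permutation p = 0.171, adjusted 0.257). In the densest windows, with 21 or more positions, the bypass minus senescent difference was 1.57 points on contigs and 2.41 on scaffolds, and with 3 to 5 positions it was 2.07 and 0.510, neither of which was tested.

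Single windows were tested with a quasi-binomial model of methylated and unmethylated reads. A window was called at a Benjamini-Hochberg adjusted p below 0.05 over contigs and scaffolds together, with group means at least 10 points apart. Windows needed 3 positions in each of the 8 libraries and a pooled level of 5% to 95%, which removed many low contig windows. From senescence to bypass, 13 of 556 contig windows were called higher and 1 lower. This is 2.52% of contig windows, beside a background of 3.62% over all 24638 windows tested (3.31% higher and 0.304% lower). The contig share was near the background.

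The calls depended on the test and on single libraries. edgeR's quasi-likelihood test on the same windows called 0 of 556 contig windows and 0 of all 24638 windows. At an unadjusted p below 0.05 it had 58 contig windows and 2686 of all windows. The main model had 97 and 4913. Without senescent library 3 the main model called 5 contig windows, and 7 without bypass library 2 and without bypass library 3. It called 9 without senescent library 1, without senescent library 4 or without bypass library 4. Both groups were apart without overlap in 46 contig windows (8.27%), 40 of them higher in bypass, against 10.6% of all windows tested. The median difference was 3.47 points on contigs and 3.44 over all windows, and 63.1% and 63.5% of windows had a positive difference.

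Of the 13 contig windows called higher, 9 had a senescent mean below 20%. They were 8.26% of the 109 tested contig windows at that level, beside 7.72% of all 5352 such windows on contigs and scaffolds. At 20% to 80%, 3 of 252 contig windows were called higher (1.19%), beside 3.14% of all 11412. At 80% or more, 1 of 195 contig windows was called higher (0.513%, beside 0.572% of all 7874) and 1 lower. A window near 0 cannot fall and a window near 100% cannot rise, so these shares are a description. In the 12 windows called higher that were measured in all 24 libraries, the median of the group means was 4.50% in vehicle pools, 5.53% in B[a]P pools, 6.64% in normal colonies, 7.83% in transformed colonies, 14.7% in senescent and 52.1% in bypass libraries.

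The called window with the largest difference lay on contig APMT01216196.1, positions 5001 to 6000. The senescent libraries had 14.0%, 30.2%, 11.9% and 19.0%, and the bypass libraries 71.3%, 76.0%, 78.1% and 81.7%. All 4 bypass libraries were far above all 4 senescent ones, with means of 76.8% ± 4.35 and 18.8% ± 8.17 (quasi-binomial model, adjusted p = 0.00737). The other 4 groups were low as well, with means from 6.14% ± 5.49 in normal colonies to 23.3% ± 11.3 in B[a]P pools. Each of the 8 senescent and bypass libraries had 105 to 487 reads over 3 to 7 positions. The call stood without each of the 8 libraries in turn (adjusted p 0.00849 to 0.0308), but not with edgeR (adjusted p = 0.116). The window before it, 4001 to 5000, had 33.9% ± 4.90 in bypass and 18.2% ± 12.5 in senescent libraries.

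A further 3 windows also kept the call without each library in turn and rose from low levels. On APMT01209876.1 the bypass mean, 19.7%, was still below 20%. On APMT01233040.1 (1001 to 2000), 3 senescent libraries were at 0% and the other at 6.97%, and the bypass libraries were at 23.8%, 52.2%, 44.7% and 36.6% (adjusted p = 0.00889 in the quasi-binomial model). On APMT01223280.1 (1001 to 2000), senescent libraries had 4.31%, 18.3%, 16.3% and 10.9%, and bypass libraries 48.1%, 33.8%, 49.2% and 35.6% (adjusted p = 0.0169). On APMT01209876.1 (8001 to 9000), senescent libraries had 2.56%, 2.53%, 2.40% and 4.65%, and bypass libraries 12.2%, 22.5%, 26.4% and 17.5% (adjusted p = 0.00991).

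None of these 3 windows had overlapping groups. Windows beside them, where measured, differed less. The first 1 kb of APMT01233040.1 was at 0.677% ± 0.696 in bypass and 0.817% ± 0.825 in senescent libraries. The window after the called one on APMT01209876.1 was at 13.6% ± 9.55 and 10.1% ± 7.52, which overlapped. With edgeR the adjusted p was 0.193, 0.208 and 0.107 for the 3 windows.

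Another 3 low windows lost the call when single libraries were left out. On APMT01214789.1 (3001 to 4000), senescent libraries had 12.9%, 3.12%, 17.1% and 31.2% and bypass libraries 27.6%, 63.5%, 62.4% and 70.1%. Bypass library 1 lay below senescent library 4, so the groups overlapped (adjusted p = 0.0374 in the quasi-binomial model). The call was lost without senescent library 1, 2 or 3 or bypass library 2, 3 or 4 (adjusted p 0.0629 to 0.116). On APMT01208296.1 (12001 to 13000), senescent libraries had 11.2%, 16.4%, 10.3% and 15.7%. The bypass libraries split into 66.7% and 70.9% against 29.1% and 26.2%, all above the senescent ones (adjusted p = 0.0346). This call was lost without any 1 of the 4 senescent libraries or without bypass library 1 or 3 (adjusted p 0.0553 to 0.0931).

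The adjacent window of APMT01208296.1, 13001 to 14000, was at 33.3% ± 3.34 in bypass and 32.8% ± 16.5 in senescent libraries. On APMT01210907.1 (9001 to 10000), 3 senescent libraries were at 0% and the other at 3.31%, and bypass libraries were at 14.8%, 24.6%, 38.4% and 20.1% (adjusted p = 0.0234 in the quasi-binomial model). The groups did not overlap, and the call was lost without senescent library 3 or 4 or bypass library 3 (adjusted p 0.0502 to 0.0974).

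The other 3 of the 10 windows with the largest differences rose from intermediate or high levels to nearly full methylation. In the first window of APMT01232600.1, senescent libraries had 36.3%, 91.4%, 55.4% and 69.0%, and bypass libraries 93.8%, 94.1%, 93.3% and 99.8% (adjusted p = 0.0151 in the quasi-binomial model). On APMT01215879.1 (4001 to 5000), senescent libraries had 86.1%, 91.5%, 71.4% and 55.1%, and bypass libraries 92.1%, 95.3%, 99.8% and 99.0% (adjusted p = 0.0140). On APMT01207198.1 (25001 to 26000), senescent libraries had 86.0%, 73.0%, 76.9% and 78.7%, and bypass libraries 91.5%, 96.2%, 90.8% and 95.1% (adjusted p = 0.0328). The groups did not overlap in any of the 3, and the spread was wider in senescence.

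These 3 calls also depended on single libraries. The call on APMT01232600.1 was lost without senescent library 3 or bypass library 1, 2 or 4 (adjusted p 0.0623 to 0.0711). The call on APMT01215879.1 was lost without senescent library 3 or bypass library 2 or 4 (adjusted p 0.0773 to 0.133). The call on APMT01207198.1 stood only without senescent library 1 and was lost without any other (adjusted p 0.0520 to 0.109). On APMT01207198.1 the window after the called one was high in both groups, at 95.9% ± 5.89 in bypass and 85.8% ± 3.67 in senescent libraries. The window before it differed by 4.15 points, less than the senescent SD of 8.70.

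The 3 other windows called higher had smaller differences and are named here after their values were seen. In the first window of APMT01229789.1, senescent libraries had 7.14%, 0%, 7.25% and 10.1%, and bypass libraries 27.8%, 22.1%, 15.9% and 16.0% (adjusted p = 0.0382 in the quasi-binomial model). On APMT01220306.1 (1001 to 2000), senescent libraries had 4.31%, 0.146%, 1.89% and 5.34%, and bypass libraries 5.41% to 22.3% (adjusted p = 0.0424). Neither window had overlapping groups, although bypass library 1 of the latter was close to senescent library 4. In the first window of APMT01234775.1, senescent libraries had 91.2%, 100%, 79.3% and 88.8%, and bypass libraries 100%, 100%, 100% and 99.8%, so the groups overlapped (adjusted p = 0.0266). These calls also depended on single libraries. The call on APMT01229789.1 stood only without bypass library 4, and that on APMT01220306.1 only without bypass library 1 (adjusted p up to 0.101 and 0.116 without the others). The call on APMT01234775.1 was lost without any 1 of the 4 bypass libraries (adjusted p up to 0.0664).

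**Figure D5:**
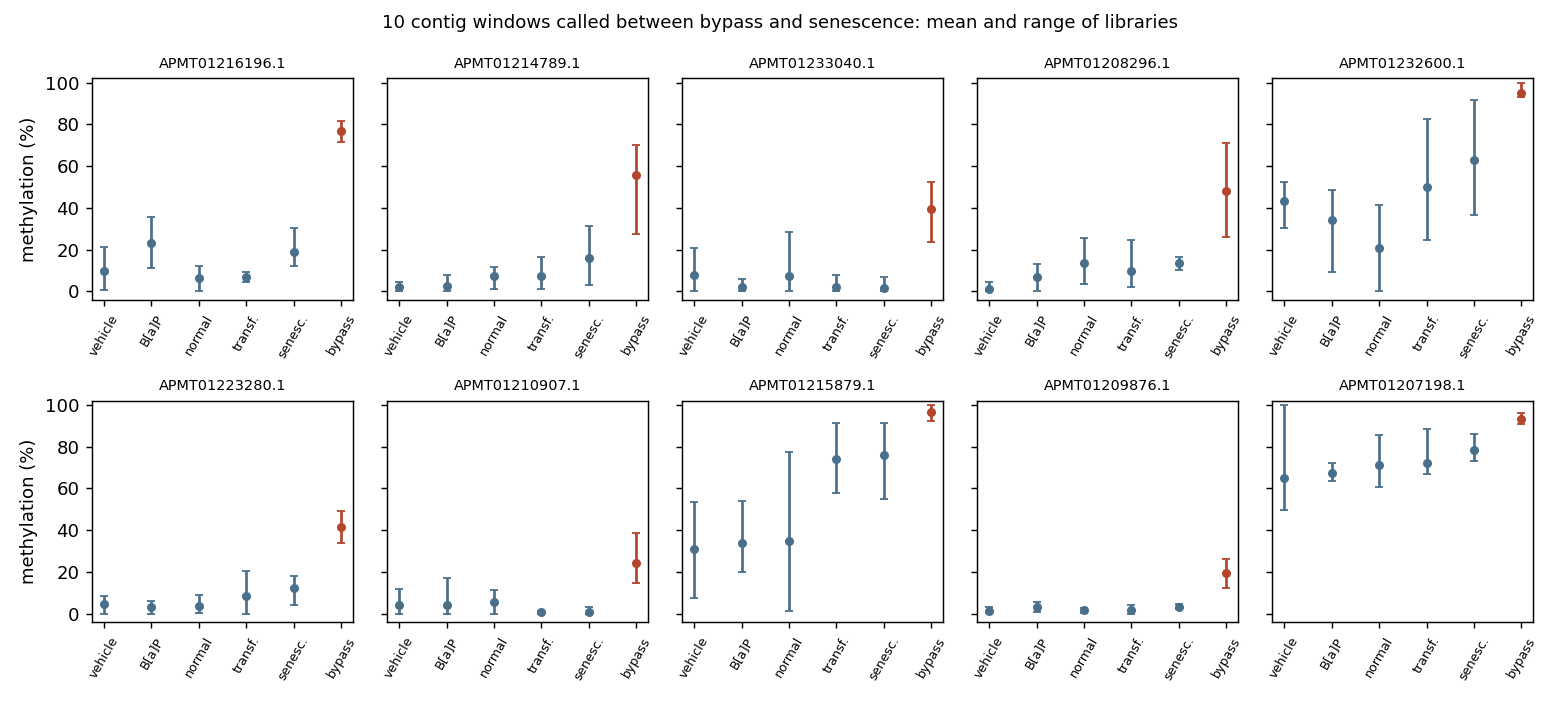
Methylation (vertical axis, percent) of the 10 called contig windows with the largest bypass minus senescent difference, 1 panel per window headed by its contig, for the 6 groups (horizontal axis). Points are group means and bars run from the lowest to the highest library, 4 per group except 3 B[a]P pools for APMT01233040.1. The bypass group (red) has the highest mean in each panel.

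The 1 contig window called lower, named here after its value was seen, lay on APMT01211648.1, positions 2001 to 3000. Senescent libraries had 95.4%, 100%, 94.8% and 92.8%, and bypass libraries 84.8%, 80.9%, 93.8% and 74.0% (quasi-binomial model, adjusted p = 0.0357). Bypass library 3 lay above senescent library 4, so the groups overlapped. The call was lost without senescent library 1, 2 or 3 or bypass library 1, 2 or 4 (adjusted p 0.0611 to 0.141).

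No contig window was called between transformed and normal colonies. With the quasi-binomial model 0 of 597 contig windows passed, beside a background of 0 of 26824 windows. At an unadjusted p below 0.05 there were 49 contig windows and 2178 of all windows (24 and 781 with edgeR). The 5 contig windows of smallest p did not pass, with adjusted p of 0.501 to 0.509. On the first window of APMT01210573.1, transformed colonies had 76.3%, 76.2%, 77.9% and 79.0%, and normal colonies 34.1%, 9.11%, 39.0% and 37.3%. The groups were apart without overlap. On APMT01210252.1 (7001 to 8000), transformed colonies had 87.5%, 82.6%, 76.0% and 95.7%, and normal colonies 41.3%, 19.5%, 65.9% and 50.0%, again without overlap.

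The other 3 of these windows were more spread. On APMT01210005.1 (13001 to 14000), transformed colonies ran from 17.0% to 78.0% and normal colonies from 0% to 13.9%. On APMT01209129.1 (2001 to 3000), the means were 82.6% ± 20.2 and 25.2% ± 30.0 and the groups overlapped. On APMT01219844.1 (2001 to 3000), all 4 normal colonies were at 99.8% or 100% and the transformed colonies at 98.7%, 77.8%, 86.5% and 75.3%. Groups did not overlap in 25 contig windows (4.19%), against 3.14% of all windows tested.

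No contig window was called between B[a]P and vehicle pools. With the quasi-binomial model 0 of 420 passed, beside 0 of 18421 windows in all. At an unadjusted p below 0.05 there were 23 contig windows and 1172 of all windows (6 and 408 with edgeR). The 5 contig windows of smallest p did not pass, each with an adjusted p of 0.752. On APMT01214882.1 (2001 to 3000), B[a]P pools had 64.0%, 68.3%, 65.5% and 49.6%, and vehicle pools 22.7%, 16.6%, 36.9% and 32.9%. On APMT01213449.1 (5001 to 6000), B[a]P pools had 60.3%, 56.5%, 54.2% and 59.2%, and vehicle pools 77.7%, 78.3%, 73.0% and 77.9%. The groups were apart in both windows, in opposite directions.

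In the other 3 the groups overlapped. The first window of APMT01233976.1 had means of 38.1% ± 29.5 in B[a]P and 82.1% ± 18.0 in vehicle pools. APMT01230744.1 (1001 to 2000) had 76.0% ± 15.2 and 90.3% ± 2.10, and APMT01221013.1 (2001 to 3000) had 15.1% ± 10.8 and 3.28% ± 6.56. Differences were positive in 49.0% of contig windows, with a median of -0.164 points, against 52.7% and 0.618 points over all windows.

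Across the 6 groups, bypass was most often the extreme. It had the highest group mean in 209 of the 567 contig windows, and in 53 of the 103 with a range of at least 20 points. Vehicle pools had the lowest mean in 161 and in 28 of these. The same counts were not made on scaffold windows. Mean scaffold levels were also highest in bypass libraries (34.5%) and lowest in vehicle pools (28.3%). Senescent and bypass libraries came from an assay on pooled fetuses, and the pools and colonies from a single male fetus. The 5 windows with the largest range all had bypass highest, a choice by size that carries no test. On APMT01211605.1 (4001 to 5000) the means were 24.4% ± 10.6 in vehicle pools, 37.3% ± 12.9 in B[a]P pools, 42.2% ± 27.0 in normal colonies, 56.6% ± 18.3 in transformed colonies, 91.1% ± 6.80 in senescent and 96.0% ± 3.69 in bypass libraries. Unlike APMT01216196.1, where only bypass was high, this window was already high in senescence, above all 16 libraries of pools and colonies.

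Adjacent windows of APMT01215879.1 were both among the 5. At 3001 to 4000 the means went from 12.5% ± 9.16 in vehicle pools to 77.9% ± 22.3 in bypass, and at 4001 to 5000 from 30.8% ± 19.0 to 96.6% ± 3.54. In the second of these the normal colonies ran from 1.43% to 77.4%, wider than any difference between neighbouring groups. On APMT01214067.1 (7001 to 8000) the means were 19.1% ± 6.95 in vehicle pools, 53.3% ± 16.6 in senescent and 83.5% ± 14.6 in bypass libraries. Bypass libraries there had 69.4%, 73.1%, 91.5% and 99.8% and senescent libraries 48.1%, 64.5%, 68.4% and 32.3%, apart by less than 1 point at the nearest.

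Coverage of single contigs was compared with edgeR's quasi-likelihood test over contigs and scaffolds with at least 5 positions shared by the 8 libraries. From senescence to bypass, 0 of 142 contigs were called at an adjusted p below 0.05 and a log2 change of at least 0.5. The background was 0.917%, which is 5 of 545 sequences, all scaffolds and all lower in bypass. The smallest adjusted p of a contig was 0.707 (edgeR), 5 contigs had an unadjusted p below 0.05, and DESeq2 called 0 as well. In the colonies 0 of 222 and in the pools 0 of 98 contigs were called, with a background of 0 in both, and 9 and 6 contigs had an unadjusted p below 0.05. DESeq2 also called 0 in both.

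The coverage of single contigs was imprecise. Fitted log2 changes from senescence to bypass ran from -1.08 to 1.37 on contigs, with a median of 0.04. They were beyond 0.5 in size in 38 contigs (26.8%), against 5.71% of scaffolds, which hold many more positions.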

How the data were processed

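Reduced representation bisulfite libraries of 24 samples were used, grouped by their labels. The submitters' processing notes name methylKit 1.10.0 and R 3.6.1 beside the aligner tools Bowtie2 and Bismark 0.22.1, and Trim Galore 0.5.0 and bcl2fastq 2.20.0.42. Which genome build served is not given in these sources. The deposited tables give, per the file headers, coverage as a read count and the percent of C and T per CpG position and strand. No deposited position had a count below 10. Methylated reads were coverage times percent. A read counts once for each position it covers, and PCR copies may be included.

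Library means used all positions. Window tests left out the top 0.1% of coverage and used a quasi-binomial model with dispersions squeezed by limma 3.58.1 within 10 classes of pooled level. Coverage was tested with edgeR 4.0.16, with DESeq2 1.42.0 as an alternative. Library values were compared by exact permutation over 70 assignments. The window and coverage tests were run on data simulated with their own fitted dispersions. Such data cannot show whether the quasi-binomial model or edgeR is better calibrated on these libraries. Named are, per comparison, up to 10 called windows of largest difference or, with under 3 called, the 5 of smallest p. Also named are the 5 contigs with most positions in all libraries, and the 5 windows of highest coverage and of largest range. Members, lists and tests were chosen with earlier results of these data known.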

Additional observations from a re-analysis of the deposited data

Results flagged for a closer look

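In 24 groups of 4 values checked for a library far from its 3 replicates, 4 were found, where chance gives about 1 in 20. The contig minus scaffold level was -0.159 points in normal colony library 2, against -1.25 to -1.14 in the other 3 normal colonies. It was -2.16 points in senescent library 1, against -1.88 to -1.86 in the others. The contig to scaffold ratio of mean coverage was 1.06 in vehicle pool library 2, against 1.04 in the other 3 vehicle pools. It was 1.02 in bypass library 4, against 1.04 in the others.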

How the results depend on the processing

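Contig windows called from senescence to bypass numbered 14, but 6 with a coverage minimum of 20 and 24 with at least 1 position. There were 10 without the limit on the pooled level, 3 with dispersions not squeezed and 8 over positions listed in all 8 libraries. edgeR called 0, and 5 to 11 were called with 1 library left out. Same-numbered replicates did not deviate together (correlations of -0.0319 to 0.0111 over windows and -0.118 to 0.160 over coverage). With the replicate number as a block, 10 contig windows were called in that comparison, 1 in the colonies (APMT01209129.1) and 0 in the pools. With pairs the permutation p cannot go below 0.125. The block left 0 contigs called for coverage in each comparison.

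The B[a]P minus vehicle difference in mean contig level, near 0, was 0.241 with at least 1 position, 0.222 over windows of the 8 libraries, 0.523 weighted by reads, 0.526 so weighted without APMT01211032.1, and -0.178 to 0.123 with 1 library left out. The bypass minus senescent difference was -0.529 weighted by reads and -0.192 without that contig, and 1.81 to 2.12 with 1 library left out. The change in the contig minus scaffold gap between colonies was 0.0217 with at least 5 positions, 0.0720 over windows of the 8 libraries, and -0.195 to 0.169 with 1 library left out. Differences in the contig share of coverage ran, with 1 library left out, from -0.00911 to 0.0133 for bypass, -0.00717 to 0.0125 for colonies and -0.00345 to 0.00684 for pools. The contig to scaffold log2 coverage ratio was -0.0123 without APMT01211032.1. The cause of these changes was not tested. Of the other alternatives, 203 kept direction and side of the threshold. Positions below 10 reads are absent, which limits shared positions.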
